A study of Mus musculus with 4 samples.

Results

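The Hox genes of dermal fibroblasts are described here across 4 Affymetrix mouse expression arrays. A member is any gene whose symbol starts with Hoxa, Hoxb, Hoxc or Hoxd and a digit and that has a probe set assigned to a single gene. The rule found 36 genes with 53 probe sets, of 18193 genes with 34945 probe sets in all. They comprise 33 Hox protein genes and 3 antisense transcripts (Hoxa11os, Hoxb5os and Hoxd3os1). Another 3 probe sets were assigned to several Hox genes at once and were left out. Members were chosen by symbol and not by their values.

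Each of the 4 groups was 1 array of fibroblasts on a C57BL/6 background. In vitro, fibroblasts given an adenovirus carrying Cre recombinase (Adeno Cre), in which the labels record deletion of RBP-Jk, were set beside fibroblasts given an adenovirus carrying GFP (Adeno GFP). In vivo, fibroblasts from mice labelled ColI Cre x RBP loxp-loxp, in which Cre is driven by a collagen I promoter and both Rbpj alleles are floxed, were set beside fibroblasts from RBP loxp-loxp mice without Cre. The floxed alleles are thus shared by both in vivo groups, while the labels do not give the Rbpj alleles of the in vitro cells. The body site of the skin, the age and number of the animals, and any culture of the in vivo cells before RNA was taken are not given in the sources used here. As each group is a single array, differences within a system are unreplicated and carry no p-value.

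Hox genes encode homeodomain transcription factors and lie in the clusters HoxA, HoxB, HoxC and HoxD. Within a cluster the genes are numbered by paralog group, and in the embryo low numbers are used towards the head and high numbers towards the tail and the ends of the limbs. Adult fibroblasts keep much of this pattern, so that the set of Hox genes transcribed in a fibroblast reflects the part of the body it came from. Hox proteins bind DNA with TALE partners of the Pbx and Meis families, and Polycomb and Trithorax proteins hold the clusters silent or active. Rbpj encodes RBP-J kappa, the transcription factor that Notch receptors act through in the nucleus.

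Promoter sequence is shown first for the HoxD neighbours whose brightest single-gene probe sets read lower together in the in vivo deletion array. Hoxa9, the paralog of Hoxd9, is shown as well. In RefSeq (GRCm38.p6), Hoxd9, Hoxd8, Hoxd3os1 and Hoxd3 lie in that order along chromosome 2, and Hoxd3os1 is transcribed in the opposite direction to the others. A further noncoding RNA gene, Gm38462, overlaps Hoxd8, Hoxd3os1 and Hoxd3 and carries Hoxd3os1 as a synonym, so the transcript behind that name is uncertain. Both probe sets are assigned to Hoxd3os1 by its gene identifier in the platform annotation. A promoter window was matched for 21 of the 36 members. Each line gives the 250 bases before the start, 5′ to 3′ on the gene's strand, with motif matches in capitals.
Hoxd9, chr2:74697513-74697762, plus strand: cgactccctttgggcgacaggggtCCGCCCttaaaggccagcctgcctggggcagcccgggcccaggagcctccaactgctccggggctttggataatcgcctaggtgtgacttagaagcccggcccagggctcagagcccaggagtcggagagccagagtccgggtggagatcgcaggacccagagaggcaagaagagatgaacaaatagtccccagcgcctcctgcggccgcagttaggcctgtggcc
Hoxd8, chr2:74704365-74704614, plus strand: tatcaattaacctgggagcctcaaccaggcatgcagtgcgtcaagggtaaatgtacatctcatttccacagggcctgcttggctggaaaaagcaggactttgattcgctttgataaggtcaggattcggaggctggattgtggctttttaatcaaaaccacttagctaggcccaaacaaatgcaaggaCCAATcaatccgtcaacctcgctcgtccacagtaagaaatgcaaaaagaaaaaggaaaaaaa
Hoxd3os1, chr2:74716131-74716380, minus strand: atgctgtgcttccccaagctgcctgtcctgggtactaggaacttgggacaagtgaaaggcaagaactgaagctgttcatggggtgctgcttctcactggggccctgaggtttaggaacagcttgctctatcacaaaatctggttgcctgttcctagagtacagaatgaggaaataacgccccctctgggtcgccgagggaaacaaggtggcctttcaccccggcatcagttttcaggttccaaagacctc
Hoxd3, chr2:74711743-74711992, plus strand: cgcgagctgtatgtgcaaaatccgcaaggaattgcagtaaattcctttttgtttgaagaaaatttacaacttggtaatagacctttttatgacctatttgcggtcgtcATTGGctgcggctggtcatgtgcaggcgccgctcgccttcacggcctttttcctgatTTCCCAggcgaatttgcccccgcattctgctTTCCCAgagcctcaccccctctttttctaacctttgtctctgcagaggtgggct
Hoxa9, chr6:52227371-52227620, minus strand: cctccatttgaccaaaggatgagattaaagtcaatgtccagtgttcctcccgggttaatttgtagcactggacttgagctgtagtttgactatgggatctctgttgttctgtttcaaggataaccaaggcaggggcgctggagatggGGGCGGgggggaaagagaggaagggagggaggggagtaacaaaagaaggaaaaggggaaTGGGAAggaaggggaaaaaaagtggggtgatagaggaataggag

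The motifs searched on both strands were GTGGGAA, the site bound by RBP-J kappa, its shorter core TGGGAA, the CCAAT box and the GC box GGGCGG. The first contains the core, so their matches overlap. The 21 members had 23 windows, as some have more than 1 start. GTGGGAA was found in 0 of these 23 windows and in 5.42% of all 32851 windows. The core TGGGAA was found in 3 windows of members, against 21.6% of all windows, and among those printed it lies 2 times in Hoxd3 and 1 time in Hoxa9. The CCAAT box was found in 11 windows of members (33.8% of all windows), and the GC box in 8 (32.7% of all windows). No motif is common to the 4 HoxD windows: Hoxd8 and Hoxd3 each hold 1 CCAAT box, Hoxd9 holds 1 GC box, and Hoxd3os1 holds none of the motifs. Windows of members had a median of 13 CG dinucleotides, against 6 over all windows. Among the printed windows Hoxd9 held 13, Hoxd3 12, Hoxd8 6, Hoxd3os1 4 and Hoxa9 3.

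The array values were log2 levels, quantile normalised over the 4 arrays. The brightest probe set by mean stands for a gene, and levels of different genes are not compared, since probe sets differ in brightness. A gene passed the level filter when its mean over the 4 arrays was at or above the 40th percentile of gene means (5.28). This was met by 10916 genes, of which 19 were Hox genes: 4 of 10 in HoxA, 5 of 10 in HoxB, 6 of 7 in HoxC and 4 of 9 in HoxD. All differences below are of log2 levels, so that -1 is a 2-fold lower level.

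Rbpj, the deleted gene, was read by 3 probe sets. With the deleted culture first, then its control, then the deleted and control arrays from mice, the probe set with the highest mean read 7.48, 8.58, 8.51 and 8.61. Its differences were -1.11 in vitro and -0.10 in vivo. The next, of nearly the same mean, read 7.29, 8.63, 8.19 and 9.02, with differences of -1.34 and -0.83. The dimmest differed by 0.10 in vitro and -0.49 in vivo. Rbpj was thus clearly lower on both brighter probe sets in the deleted culture, while in vivo the probe sets ranged from -0.83 to -0.10. Probe positions against the deleted exons were not analysed here, and probes elsewhere in the transcript cannot check the labels.

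**Figure D1:**
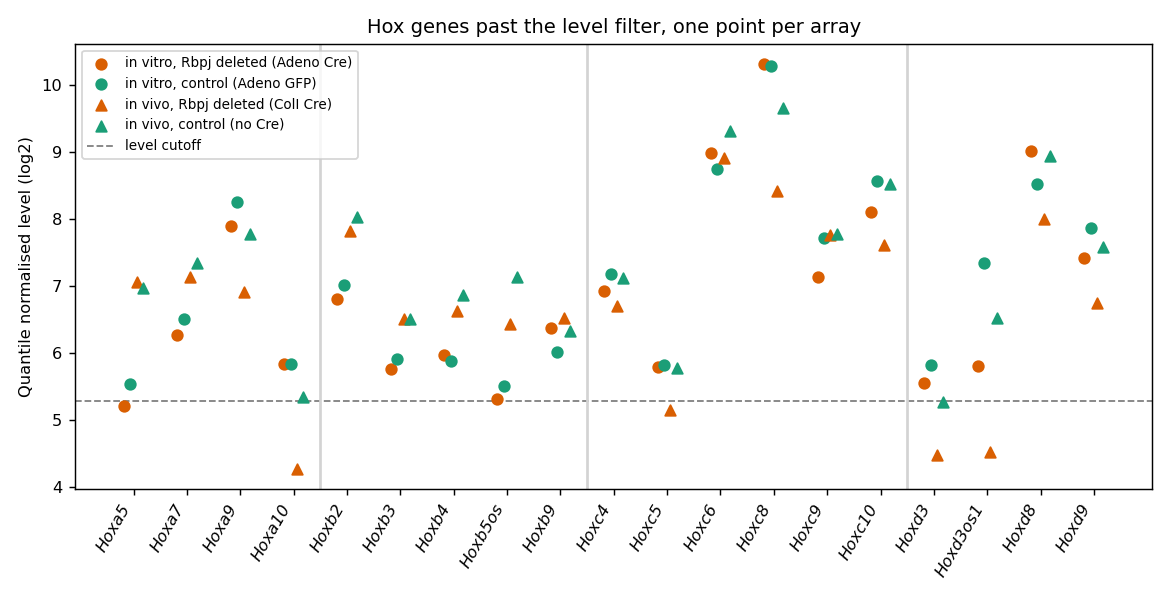
Quantile normalised log2 level (y axis) of the 19 Hox genes past the level filter (x axis, by cluster and paralog group), with 1 point per array, circles for in vitro and triangles for in vivo, orange for deleted and green for control. The dashed line is the level cutoff of 5.28, and the orange triangles of Hoxa9, Hoxa10, Hoxc8, Hoxc10 and the HoxD genes lie lowest of their 4 points.

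Of the 17 members under the filter, 12 lay under the cutoff on all 4 arrays. These 17 read from 3.45 to 5.70 and held the highest paralog groups of every cluster: Hoxa11, Hoxa13, Hoxb13, Hoxc13, and Hoxd10 to Hoxd13. The 17 also held anterior and central genes (Hoxa2, Hoxa3, Hoxa4, Hoxb1, Hoxb5, Hoxb6, Hoxb7 and Hoxd1) and Hoxa11os. In vitro their deletion differences lay between -0.23 and 0.27, and in vivo between -0.49 and 0.23. A signal near background understates a difference, so these values say little of those genes. Just inside the filter stood Hoxd3 (mean 5.28) and Hoxa10 (5.32), and just outside it Hoxa3 (5.13) and Hoxc13 (5.12).

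In the cultured cells Hox genes differed little between the arrays, apart from Hoxd3os1. Of the 19 genes past the filter, 0 were at least 2-fold higher (0.788% of all genes analysed were) and 1 was at least 2-fold lower (1.15% of all genes). That gene was Hoxd3os1. At 1.5-fold the counts were also 0 higher (5.1% of all genes) and 1 lower (9.66% of all genes). The median over the 19 was -0.21 and that over all genes analysed -0.06, with 13 of the 19 lower (57.5% of all genes) and 6 higher (42.5% of all genes).

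Among the remaining 18, in vitro differences ran from -0.58 for Hoxc9 to 0.49 for Hoxd8. Hoxc9, which patterns the trunk skeleton, read 7.14 in the deleted culture and 7.72 in its control, and 7.76 and 7.77 in vivo. The deleted culture was thus the low array of the 4. Hoxc10, Hoxd9 and Hoxa9, all of posterior paralog groups, differed by -0.46, -0.45 and -0.36, though the dimmer probe set of Hoxa9 gave 0.04. Hoxd8 went the other way on 1 of its probe sets only, with 0.49 for the brighter and -0.06 for the other.

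The ratio of 3′ to 5′ signal also differed between the cultures. For Gapdh, the log2 excess of 3′ over 5′ signal was 1.003 with Adeno GFP but 0.0194 with Adeno Cre. Actb gave 1.11 against 0.40 and Pcx 3.16 against 2.01, while Tfrc went the other way with 0.96 against 1.45. In vivo, the control and deleted arrays were closer, at 0.14 and 0.13 for Gapdh and 0.41 and 0.15 for Actb. The part of this gap in the in vitro differences, that of Hoxd3os1 included, was not tested.

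In the in vivo pair Hox genes read lower in the deleted array in 17 of the 19 cases (53.6% of all genes analysed) and higher in 2 (46.4% of all genes). The 17 include Hoxb3 and Hoxc9 (-0.0018 and -0.01), which lay above 0 once differences were centred on the median of all genes. The median over the 19 was -0.62, and -0.03 over all genes. By 2-fold or more, 3 were lower (3.81% of all genes) and 0 higher (2.81% of all genes). By 1.5-fold or more, 10 were lower (11.2% of all genes) and 0 higher (8.02% of all genes). The filter works on the mean of all arrays, so these 19 do not stand for all members. Over all 36 members, 28 were lower, 3 by 2-fold, with a median of -0.23. The share of all genes with no filter is not given here, so these counts have nothing to be read against.

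By cluster, the 10 were 4 of 4 genes past the filter in HoxD, 3 of 6 in HoxC, 2 of 4 in HoxA and 1 of 5 in HoxB. Hoxd3 passed through its in vitro arrays alone, and both its in vivo arrays lay under the cutoff. Medians past the filter were -0.89 for HoxD, -0.52 for HoxC, -0.53 for HoxA and -0.20 for HoxB. Over all members measured they were -0.37, -0.41, -0.13 and -0.17, so that the order of the clusters depends on the filter. No difference between clusters was tested. The level of a transcript in such a bulk sample falls both with fewer cells of the type that makes it and with less RNA per cell, which cannot be told apart.

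**Figure D2:**
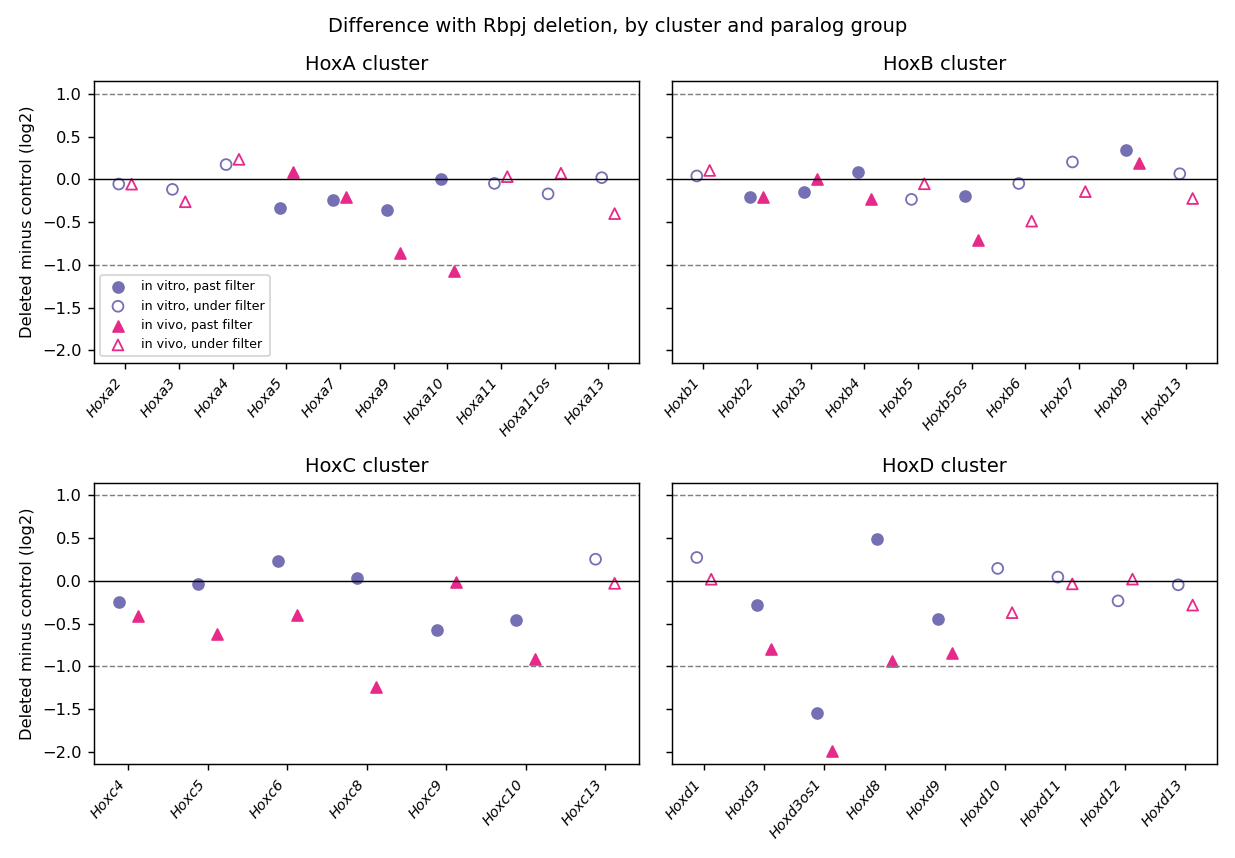
Deleted minus control difference on the log2 scale (y axis) of all 36 Hox genes by cluster (panels) and paralog group (x axis), with violet circles for in vitro and pink triangles for in vivo. Filled points passed the level filter, dashed lines mark 2-fold, and in vivo Hoxa10, Hoxc8 and Hoxd3os1 lie beyond the lower line.

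Hoxc8, a gene of the trunk and its limb levels, was one of the 3 genes 2-fold lower in vivo, and lay far above the cutoff on every array. From mice it read 8.42 with the deletion and 9.66 without, and 10.32 and 10.28 in the deleted and control cultures. Both in vivo arrays thus lay below both in vitro arrays, and the deleted one lowest. The in vivo difference was -1.25 (2.37-fold lower) and the in vitro difference 0.03.

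Hoxd8, its paralog in HoxD, read 8.01 in the in vivo deleted array and 8.94 in the control, and 9.02 and 8.53 in vitro. Its probe sets gave like in vivo differences, -0.94 and -0.93. The in vivo deleted array was the lowest of the 4 on both. Hoxb8 has no probe set of its own, so paralog group 8 is represented by these genes alone.

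Paralog group 9, which is used along the posterior trunk and in the limbs, was split. Hoxd9 read 6.75 (deleted) and 7.59 (control) in vivo and 7.43 and 7.87 in vitro, a difference of -0.84 in vivo. Hoxa9, known also for its role in blood progenitors, read 6.91 and 7.77 in vivo and 7.90 and 8.26 in vitro on its brighter probe set, a difference of -0.86. Its dimmer probe set gave 0.17 in vivo and lay between 5.77 and 6.19 on all arrays. The other members of the group stayed near 0: Hoxb9 was at 0.19 (6.52 and 6.33) and Hoxc9 at -0.01 in vivo. Lower values in this group were therefore those of Hoxd9 and of the brighter Hoxa9 probe set alone, and no test separates them from Hoxb9 and Hoxc9.

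Paralog group 10, whose members pattern the lumbar spine and the proximal limb, was lower in both genes past the filter. Hoxc10 read 7.62 (deleted) and 8.53 (control) in vivo and 8.11 and 8.57 in vitro, a difference of -0.92 in vivo. Hoxa10 read 4.27 and 5.34 in vivo, a difference of -1.07 with the deleted signal under the cutoff, and 5.84 on both in vitro arrays. The other probe set of Hoxa10 lay under the cutoff throughout (3.66 to 3.98) and gave 0.15. Hoxd10 was under the filter, at 3.45 and 3.82 in vivo.

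The anterior and central HoxC genes were lower by less. Hoxc5 was at -0.62 (5.15 in the deleted array, 5.77 in the control), with its other probe sets at -0.20 and -0.24. Hoxc4 was at -0.41 (6.71 and 7.12). Hoxc6, a gene of the thoracic level in the embryo, was at -0.40 (8.92 and 9.31), with its other probe sets at -0.46 and -0.18. In the deleted and control cultures Hoxc4 read 6.93 and 7.18, Hoxc5 5.79 and 5.82, and Hoxc6 8.99 and 8.75, with probe sets of both signs for Hoxc5 (-0.28 to 0.47) and Hoxc6 (-0.07 to 0.23). All 6 HoxC genes past the filter were lower or level, from -1.25 to -0.01.

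In HoxB the protein genes differed little in vivo. Hoxb2, which patterns the hindbrain, read 7.83 (deleted) and 8.03 (control) in vivo and 6.81 and 7.02 in vitro. Hoxb3 read 6.51 and 6.52 in vivo and 5.76 and 5.91 in vitro. Hoxb4 read 6.63 and 6.86 in vivo and 5.97 and 5.89 in vitro. Deletion differences of these genes ran from -0.23 to 0.09 on the brighter probe sets, while both in vivo arrays lay above both in vitro arrays. Hoxb9 read 6.37 and 6.02 in vitro, higher with the deletion in both systems. The other probe sets of Hoxb3 and Hoxb4 gave -0.58 and 0.08. Under the filter, Hoxb6 was at -0.49 (5.21 and 5.70). The antisense transcript Hoxb5os was at 6.43 in the deleted array and 7.14 in the control, a difference of -0.71, and at 5.32 and 5.51 in vitro. Central HoxA genes were also close to their controls. Hoxa5 read 7.06 and 6.97 in vivo (0.08) and 5.21 and 5.55 in vitro. Hoxa7 read 7.14 and 7.35 in vivo (-0.21) and 6.27 and 6.51 in vitro. Across the 19 genes the in vivo difference had a Spearman correlation of -0.24 with paralog group number, over genes that share 2 arrays and are not independent.

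Hoxd3os1 and Hoxd3 lie on opposite strands of the same stretch of HoxD. The brighter probe set of Hoxd3os1 read 5.81 in the deleted culture and 7.35 in its control, and 4.52 in the in vivo deleted array against 6.52 in its control. Each deleted array was lower than its own control and both were lower than both controls, with differences of -1.55 in vitro (2.92-fold lower) and -1.99 in vivo (3.98-fold lower, with the deleted signal under the cutoff). The other probe set stayed under the cutoff on all 4 arrays (4.55 to 4.84) and gave 0.08 and 0.29. Hoxd3 itself read 5.55 and 5.83 in vitro and 4.48 and 5.27 in vivo, differences of -0.28 and -0.79, with both in vivo values under the cutoff. Probe sets assigned to both Hoxd4 and Hoxd3 were left out of the counts and gave weaker or opposite differences. The brighter, above the cutoff on every array, gave 0.18 in vitro and -0.35 in vivo. The dimmer gave 0.46 and 0.08.

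**Figure D3:**
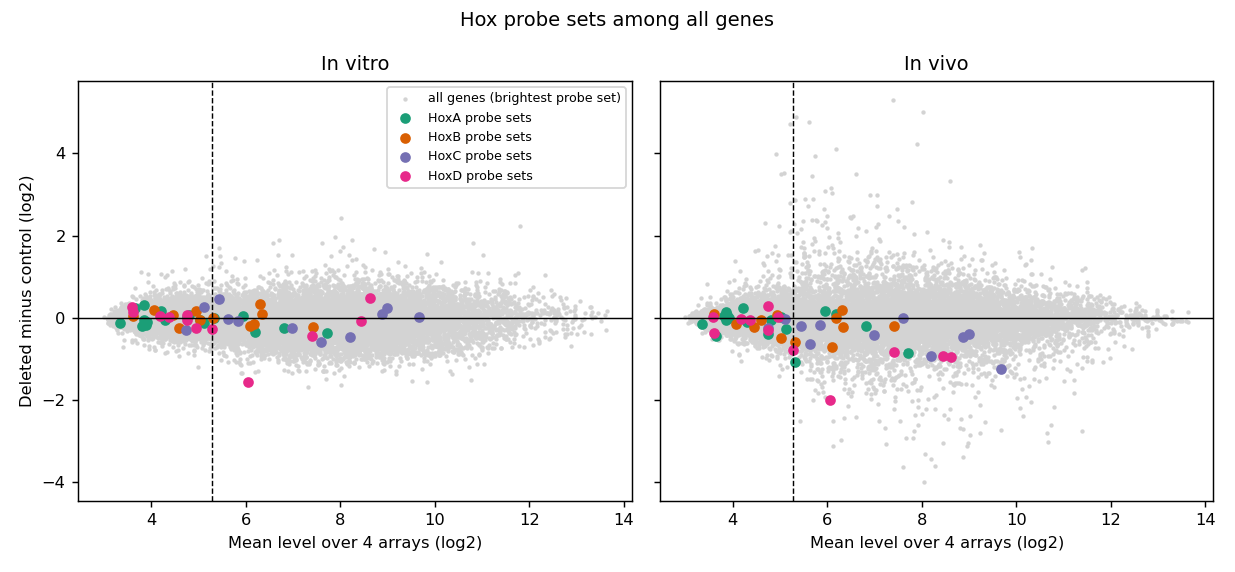
Deleted minus control difference (y axis, log2) against the mean level over the 4 arrays (x axis, log2) for the 53 Hox probe sets, coloured by cluster, over all genes in grey, in vitro left and in vivo right. The dashed vertical line is the cutoff of 5.28. In vivo Hoxc8, the right-most Hox point, lies at -1.25, and the lowest point in both panels is the Hoxd3os1 probe set at -1.55 and -1.99.

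Both deletions were also fitted together with limma, with system (in vitro or in vivo) as a covariate, which treats them as the only replication of the deletion. None of the 10916 genes passed an adjusted p of 0.05 in limma (0.0% higher, 0.0% lower), Hox genes included. At an unadjusted p under 0.05, 217 genes were higher (1.99%, 0 of them Hox) and 542 lower (4.97%, 4 of them Hox). Those 4 were Hoxd3os1 (-1.77, SE 0.22), Hoxc10 (-0.69), Hoxd9 (-0.64) and Hoxa9 (-0.61), each lower in both systems on the probe set that stands for the gene. For Hoxa9 this direction rests on that probe set, since the other, above the cutoff on all 4 arrays, was at 0.04 in vitro and 0.17 in vivo. The limma adjusted p was 0.679 for each of them. Between systems the differences of the 18 genes other than Hoxd3os1 had no common order (Spearman correlation -0.03, a description over genes that share the arrays).

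Markers of other cells moved with the in vivo pair. Of 16 keratinocyte markers 11 passed the filter, 9 of these were higher in the deleted array, 8 by 2-fold. Their median was 3.93 (Krt6a 5.29, and Krt14 5.00 with the lowest of its probe sets at 0.50). The filter works on the mean of all arrays, so a marker high in the deleted array alone could pass it. With no filter the median over all 16 was 2.37, with 9 higher by 2-fold. The summed linear level of all 16 was 7323 in the deleted array against 859 in its control. The cultures gave 1043 with the deletion and 1501 without. Of 16 skeletal muscle markers 14 passed, all 14 were higher, 11 by 2-fold, with a median of 1.83 (Myl1 3.03, Actc1 2.99). With no filter the median over all 16 was also 1.83, with 12 higher by 2-fold. Summed levels of the muscle markers were 4879 (deleted) and 1206 (control).

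Fibroblast markers, by contrast, had a median of -0.05 in vivo. Of 10, 6 were lower, and Lum, a small proteoglycan of collagen fibrils, was the only one lower by 2-fold (-1.06). Pdgfra was at -0.59, and the summed level was 65502 in the deleted array and 67561 in the control. The brightest markers weigh most in that sum, so it says little of dimmer ones such as Lum and Pdgfra. Col1a1 and Col1a2 read 13.72 and 13.57 in the deleted array, near the highest deposited value (13.79). The part of keratinocyte and muscle transcripts in the lower Hox values was not tested.

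**Figure D4:**
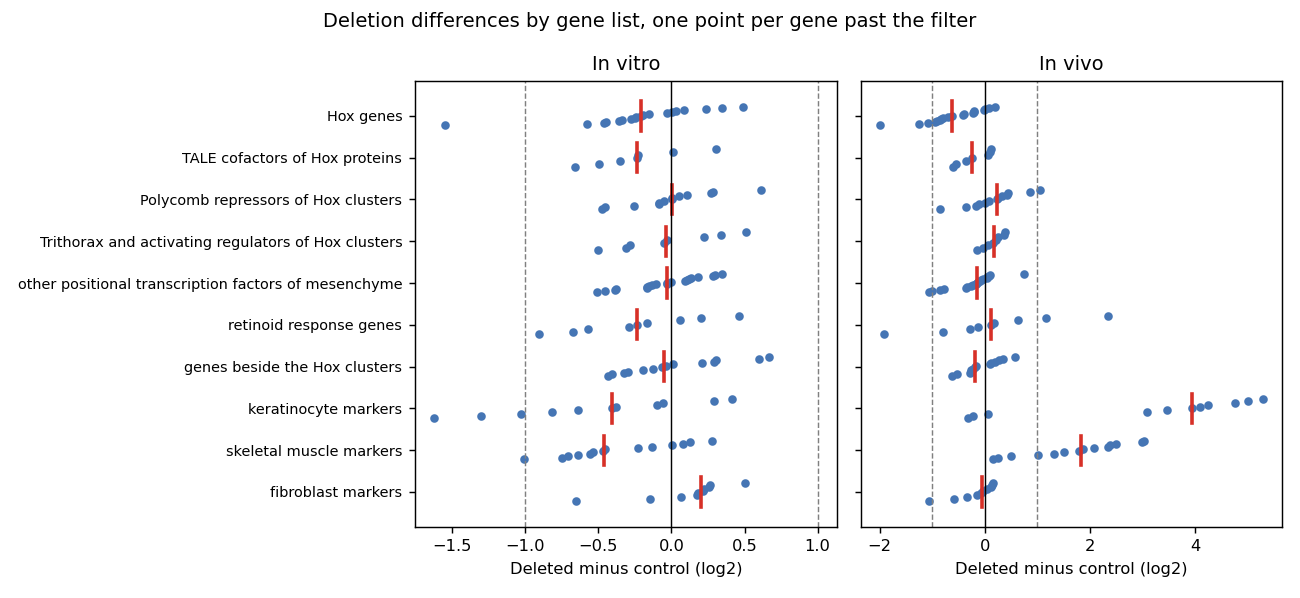
Deleted minus control difference (x axis, log2) of genes past the level filter by gene list (y axis), in vitro left and in vivo right on different scales, with 1 point per gene and a red bar at the median. In vivo the Hox median is -0.62, the fibroblast median -0.05 and the keratinocyte and muscle medians 3.93 and 1.83. With no filter the Hox median is -0.23 and the keratinocyte median 2.37.

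Partners and regulators of Hox proteins had in vivo medians closer to 0 than that of the Hox genes, a difference that was not tested. Of the TALE cofactors, which bind DNA beside Hox proteins, 7 of 9 passed the filter, 4 of these were lower in vivo, 0 by 2-fold, with a median of -0.25. Meis2 was at -0.60 in vivo and Pbx2 at -0.66 in vitro, where the list median was -0.23. Of 13 Polycomb genes past the filter 9 were higher in vivo, with a median of 0.23. Suz12 and Ezh2, core subunits of the complex that methylates histone H3, were at 1.04 and 0.86, and Ezh1 at -0.84. Probe sets of Suz12 ranged from -0.13 to 1.40 and those of Ezh1 from -0.84 to 0.18. Of 8 Trithorax and activating genes 6 were higher in vivo (median 0.18, none by 2-fold), led by Wdr5 at 0.39 and Psip1 at 0.37. Probe sets of Psip1 ranged from -0.14 to 0.45.

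Other transcription factors that mark position in mesenchyme were lower in vivo in 15 of 20 cases past the filter (53.6% of all genes analysed). Their median was -0.15, against -0.03 over all genes, and became -0.06 with no filter. Shox2, a gene of the proximal limb, was at -1.07 (7.43 in the deleted array, 8.50 in the control). Meox2 followed (4.59 and 5.59, the deleted signal under the cutoff), Prrx2 at -0.84 and Twist1 at -0.78. Each of these read lowest in the in vivo deleted array. In vitro the same list had a median of -0.03, with Twist1 at -0.51, Prrx2 at -0.45 and En1, which marks back dermis and ventral limb ectoderm, at -0.39.

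Genes flanking the clusters went both ways in vivo. Of 14 past the filter 8 were lower and 6 higher, 0 by 2-fold, with a median of -0.18, which became 0.10 with no filter. Skap2, beside HoxA, was at -0.62, with probe sets from -1.07 to 0.17, and Snx10, also beside HoxA, at -0.52. Cbx5, which encodes the heterochromatin protein HP1 alpha and lies beside HoxC, was at 0.58, with probe sets from -0.34 to 0.60. These differences were about as large as the Hox median. Beside HoxD, Mtx2 was at -0.26, Evx2 at -0.17 and Lnpk at 0.28, with the lowest of the Lnpk probe sets at -0.15.

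Retinoic acid sets Hox expression in the embryo, and its genes went both ways in vivo. Of 9 past the filter 5 were higher, 2 by 2-fold, and 4 lower, 1 by 2-fold, with a median of 0.11. Aldh1a3, which makes retinoic acid, was at 2.34 (control under the cutoff), and Cyp26b1, which degrades it, at 1.16. Dhrs3, which turns retinal back to retinol, was at -1.92 and Crabp1, a retinoic acid binding protein, at -0.80. In vitro the list had a median of -0.24, with Crabp1 at -0.91 and Cyp26b1 at -0.68.

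The control arrays were compared to ask how the Hox pattern of the cultured fibroblasts stood against that of the fibroblasts from mice. The arrays give no way to separate the system from an array batch, and with unknown skin sites body position and system cannot be told apart either. HoxB genes were higher in the in vivo control in 5 of 5 cases past the filter (50.4% of all genes analysed). Their median was 0.98, against 0.01 over all genes. Over all members measured, 9 of 10 were higher in HoxB (median 0.71), 7 of 10 in HoxA (0.41), 6 of 9 in HoxD (0.11) and 2 of 7 in HoxC (-0.05). For these unfiltered counts no share of all genes is given. Among the HoxB genes past the filter the differences were as follows. Hoxb2 was at 1.02, Hoxb4 at 0.98, Hoxb3 at 0.60, Hoxb9 at 0.30 and Hoxb5os at 1.63. The dimmer probe set of Hoxb4 gave 0.16 and that of Hoxb3 0.52. All 5 were also higher in the values as deposited. Both in vivo arrays lay above both in vitro arrays for Hoxb2, Hoxb3, Hoxb4 and Hoxb5os, and for Hoxb9 the arrays overlapped.

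Other measures separated the same control arrays. The log2 excess of 3′ over 5′ signal was larger in the in vitro control for Gapdh (1.003, against 0.14 in vivo), Actb (1.11 against 0.41) and Pcx (3.16 against 1.10). Tfrc went the other way, with 0.96 in the in vitro control and 1.25 in the in vivo control. Keratinocyte markers past the filter had a median of -1.40 in the in vivo control relative to the in vitro control (8 of 11 lower). Skeletal muscle markers had a median of 0.71 (13 of 14 higher) and fibroblast markers 0.02 (6 of 10 higher). With no filter the keratinocyte and muscle medians were -0.86 and 0.62. Among the fibroblast markers Lum alone was lower by 2-fold (-2.11). The part of these measures in the Hox differences between controls was not tested.

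Over all 36 members, 24 were higher in the in vivo control, 5 of these by 2-fold, and 12 lower, with a median of 0.30. These counts too have no share of all genes with no filter beside them. The balance between higher and lower depends on the filter. Of the 19 genes past the filter, 10 were higher in the in vivo control (50.4% of all genes) and 9 lower (49.5% of all genes). By 2-fold or more, 3 were higher (4.54% of all genes) and 0 lower (5.82% of all genes), and by 1.5-fold 6 were higher (14.3% of all genes) and 2 lower (14.2% of all genes). Those 2-fold higher were Hoxb5os, Hoxb2 and Hoxa5, the last at 6.97 in vivo and 5.55 in vitro, with a difference of 0.80 on its dimmer probe set. Hoxa7 was at 0.84. Hoxa13, a gene of the hand, foot and genital tubercle that lies under the filter, read 5.58 and 4.11, a difference of 1.47 (5.18 and 4.13 in the deleted arrays). Hoxb6, also under the filter, read 5.70 and 4.64, a difference of 1.06 (5.21 and 4.59 in the deleted arrays). Of 20 other positional factors past the filter, 12 were higher in the in vivo control and 8 lower. Pitx1, a factor of the hindlimb, was at 1.38 on its brightest probe set, with the lowest of its probe sets at 0.22. On that brightest probe set its in vitro control value (4.93) lay under the cutoff. Tbx5, of the forelimb, was at 0.82. Zic1 went the other way at -0.89, with the lowest of its probe sets at -2.26. Hoxc5 was at -0.05, with another probe set at 1.15. Furthest below the in vitro control were Hoxd3os1 (-0.83), Hoxc8 (-0.62), Hoxd3 (-0.56), Hoxa10 (-0.50) and Hoxa9 (-0.49).

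**Figure D5:**
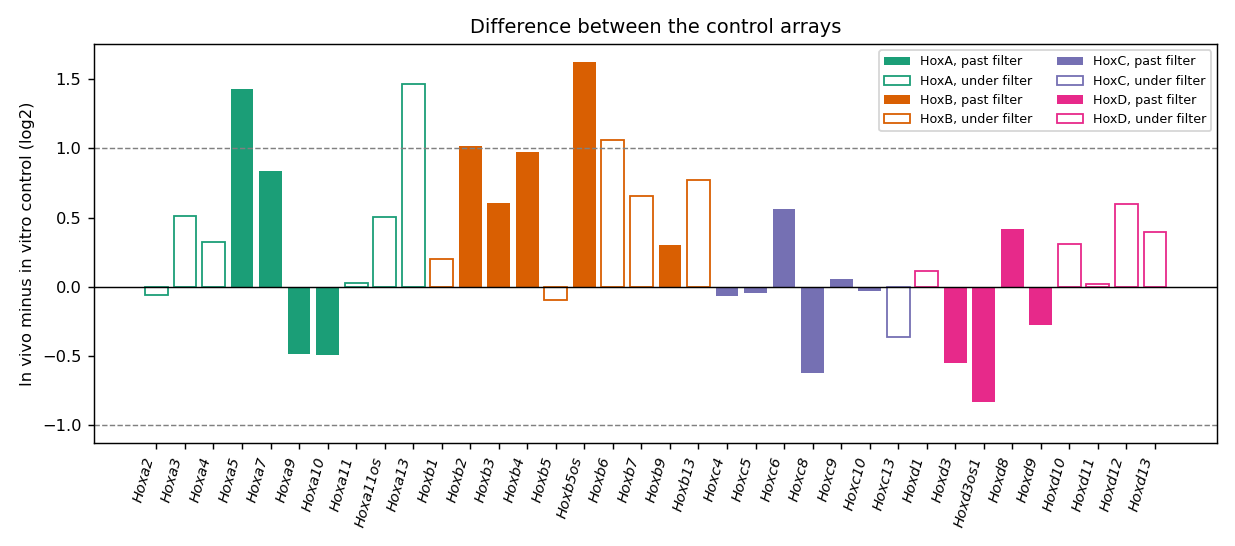
In vivo control minus in vitro control difference on the log2 scale (bars, y axis) of all 36 Hox genes by cluster and paralog group (x axis), with filled bars for genes past the level filter and dashed lines at 2-fold. The 5 filled HoxB bars run from 0.30 to 1.63, those of HoxA from -0.50 to 1.43, and those of HoxC and HoxD from -0.83 to 0.56.

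The limma fit tested the system effect over all 4 arrays, with deletion as a covariate. At an adjusted p of 0.05 it called 147 genes higher (1.35%) and 302 lower (2.77%) in vivo. Among the Hox genes it called 1 higher, Hoxa5, and 0 lower. At an unadjusted limma p under 0.05, 6 Hox genes were higher (14.6% of all genes) and 5 lower (14.1% of all genes). Hoxa5 differed by 1.64 (SE 0.22, limma adjusted p = 0.0393). Hoxb5os differed by 1.37 (limma adjusted p = 0.053) and Hoxb2 by 1.02 (0.0669). In the values as deposited, Hoxa5 missed the threshold (1.52, limma adjusted p = 0.0502). The call also rested on an _x_at probe set, a kind whose probes can bind related transcripts, and without such probe sets Hoxa5 differed by 0.74 (limma adjusted p = 0.106).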

How the data were processed

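The authors deposited 1 table of log2 expression values for 45101 probe sets on 4 arrays (2.87 to 13.79, 0 missing). The log2 scale was read from that range, and how the authors corrected and normalised the arrays is not given in the sources used here. Per the labels, poly(A) RNA was primed with oligo(dT) and labelled as biotin cRNA. Upper quartiles differed between arrays (6.91 to 7.18), so values were quantile normalised over the 4 arrays. Gene names came from GEO's annotation of the platform (34958 with 1 gene, 932 with several), with symbols updated through RefSeq (GRCm38.p6) for 34741. The number of arrays limits the precision.

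Differences within a system were not tested. Effects over all 4 arrays were fitted with limma 3.58.1 in R 4.3.3 (lmFit and eBayes, 1 residual degree of freedom, Benjamini-Hochberg over 10916 genes). The procedure was also run on simulated data with equal noise in every gene, which does not check the p-values of these arrays. With 1 array per group, the limma p-values rest on how far the effect differed between the pairs of arrays and on a variance pooled over all genes. The pooled variance carries more weight (3.69 prior degrees of freedom). Neither measures the spread between animals or cultures. Values were printed for every member past the filter or 2-fold different. From each other list, genes were named among the 4 largest absolute differences per comparison. Mtx2 was named after its values were seen. Promoter windows were cut from RefSeq and searched in Python 3.11.15. Members and lists were chosen with earlier results of these data known.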

Additional observations from a re-analysis of the deposited data

Results flagged for a closer look

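The deletion differences of Hoxc8 and Hoxa10 had opposite signs in the systems on the quantile normalised values of their brightest probe sets. For Hoxc8 the in vivo minus in vitro difference was -1.28 (from -1.25 and 0.03). In the values as deposited its in vitro difference was -0.03, so the signs no longer opposed. For Hoxa10 it was -1.07 (from -1.07 and 0.0020), and its other probe set, under the cutoff throughout, had the same sign in both systems (0.31 in vitro, 0.15 in vivo). In vitro values this close to 0 have no direction, and with 1 array per group the difference between systems was not tested.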

How the results depend on the processing

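Settings were changed one at a time. The in vitro count of Hox genes 2-fold lower (1) became 0 with the level filter at the 60th percentile, with the median of all probe sets and at 3-fold. The in vivo count (3) became 1 under each of these 3 settings and 10 at 1.5-fold, and the in vivo median became -0.23 with no filter. For the controls, the count higher (3) became 5 with no filter, 1 with the 60th percentile filter, 6 at 1.5-fold and 1 at 3-fold, and the count lower (0) became 1 in the values as deposited and 2 at 1.5-fold. Hox genes higher by system (1) became 0 as deposited, with an offset added before log2, with no filter, with the 60th percentile filter, with the median of probe sets and without _x_at and _s_at probe sets, and 2 with a variance trend, which also called 1 lower. Fewer genes pass a stricter filter or fold; the cause of the other changes was not tested. As deposited, the control difference of all genes had a median of -0.13 in place of 0.01, and that of the Hox genes -0.11 in place of 0.06. No difference of 2-fold or more and no limma call changed sign under these settings. Among smaller values, 14 of single genes (6 genes) changed sign, each at most 0.34 from 0 in size as reported. In vitro these were Hoxa5 (-0.34, 0.07 without _x_at and _s_at probe sets), Hoxc5 (-0.03, 0.47 with the median of probe sets) and Hoxc8 (0.03, -0.03 as deposited). The control median of the Hox genes changed sign as deposited and with the 60th percentile filter (-0.04). Leaving out an array was not possible with 1 per group. The system term in limma sets each deleted array against its own control, and without it 0 Hox genes were again called for the deletion. Signals near background limit the 17 genes under the filter.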
